A study of Rattus norvegicus with 25 samples.

Results

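The miR-125 and miR-351 family comprised every mature miRNA of the sperm miRNA table whose name starts with rno-miR-125a-, rno-miR-125b- or rno-miR-351-, which gave 7 of 562 miRNAs. The members were defined by name, and the family was chosen with earlier results of these data known. The study asked whether intravenous morphine self-administration by F0 male Sprague–Dawley rats, and a drug-free period after it, went with a change in the small RNA content of their sperm. Mature sperm were taken from the cauda epididymis, purified by double swim-up and sequenced as small RNA libraries. There were 25 libraries, described by the labels as biological replicates. F0_SAL (n = 7) came from males that self-administered saline with no abstinence, F0_MOR (n = 7) from males that self-administered morphine with no abstinence, F0_ABS-SAL (n = 5) from saline males 90 days abstinent, and F0_ABS-MOR (n = 6) from morphine males 90 days abstinent. No group was free of surgery or self-administration, since the saline males had catheters and sessions too. The abstinent males were older when sperm were taken, so that abstinence and age cannot be told apart, and the sampled males were a cohort other than the males used for breeding. Ages are not given in the labels.

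A miRNA is cut from one arm (5p or 3p) of a hairpin precursor and guides the silencing of mRNAs that pair with its seed, bases 2 to 8 from its 5′ end. miR-125 is the vertebrate relative of lin-4, the first miRNA described, and takes part in developmental timing, blood cell formation and muscle differentiation. miR-351 is a rodent miRNA that carries the same seed but is encoded on the X chromosome, in a cluster with miR-322 and miR-503. Sperm acquire part of their miRNAs during transit through the epididymis, and the RNA they carry enters the egg at fertilisation.

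The mature sequences show why the 5p arms are grouped and the 3p arms are not. They are RefSeq sequences on the GRCr8 assembly, 5′ to 3′, with the seed in capitals. The 5p arms are given first.
rno-miR-125a-5p: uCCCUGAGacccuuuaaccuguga
rno-miR-125b-5p: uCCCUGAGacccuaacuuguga
rno-miR-351-5p: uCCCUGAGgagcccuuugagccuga
rno-miR-125a-3p: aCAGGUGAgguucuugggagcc
rno-miR-125b-1-3p: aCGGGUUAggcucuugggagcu
rno-miR-125b-2-3p: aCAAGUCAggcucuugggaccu
rno-miR-351-3p: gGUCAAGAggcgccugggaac

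Of 693 rat mature miRNAs in the RefSeq table, 3 carried the seed CCCUGAG, and all 3 were in the sperm miRNA table as miR-125a-5p, miR-125b-5p and miR-351-5p. Each of the 3p seeds was carried by 1 miRNA. miR-125a-5p (24 bases, chr1:67350689-67350712, plus strand) and miR-125b-5p (22 bases) shared their first 13 bases and differed at 2 of the first 15. miR-351-5p (25 bases, chrX:137725157-137725181, minus strand) shared only the first 8 bases with either. Reads as short as 15 bases were kept and 1 mismatch was allowed in the alignment. An error-free read of the first 15 bases of miR-125a-5p or miR-125b-5p differs from the other at 2, more than was allowed. A short read with an error at these bases could still be assigned to the wrong one, which was not tested.

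miR-125b-5p is made from 2 genes. Its sequence stands in the Mir125b1 hairpin at position 15 and at chr11:29732588-29732609 (plus strand) in Mir125b2, so its reads cannot be assigned to either gene. The 3p arms can be: miR-125b-1-3p lies on chromosome 8 (chr8:50850090-50850111, plus strand) and miR-125b-2-3p on chromosome 11 (chr11:29732627-29732648, plus strand). These 2 arms share a run of 12 bases but differ at 3 of the first 15. In the order of RefSeq's miRNA genes, Mir125a follows Mir99b, Mir3596c and Mirlet7e, and Mir125b1 follows Mir100, Mir3596a and Mirlet7a-2. Mir125b2 follows Mir99a, Mirlet7c1 and Mir3588. Mir351 lies between Mir542 and Mir503, with Mir322 next. The neighbours described below leave out Mir3596c, Mir3596a and Mir3588.

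The libraries held between 1032386 and 3203211 miRNA counts, and no 2 of them were close to the same library. All 25 libraries were led by markers of sperm and spermatids (miR-34b, miR-34c and miR-449): these summed to 175454 to 742741 counts per 1000000 (CPM, scaled here by the trimmed mean of M values, TMM). Markers of other cell types were also present. The 6 smooth muscle and fibroblast markers (miR-143, miR-145, miR-199a and miR-214 arms) summed to 14291 to 17956 CPM in F0_SAL and 14336 to 19560 CPM in F0_MOR, against 19570 to 84454 CPM in F0_ABS-SAL and 18235 to 38076 CPM in F0_ABS-MOR. The 2 endothelial markers (arms of miR-126a) summed to 546 to 783, 583 to 733, 708 to 2821 and 1036 to 1457 CPM in the same order. Libraries L and R of F0_ABS-SAL stood apart in these lists. R had the highest smooth muscle and fibroblast sum and L the highest endothelial sum, so the tests of F0_ABS-SAL against F0_SAL were also run without both.

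**Figure D1:**
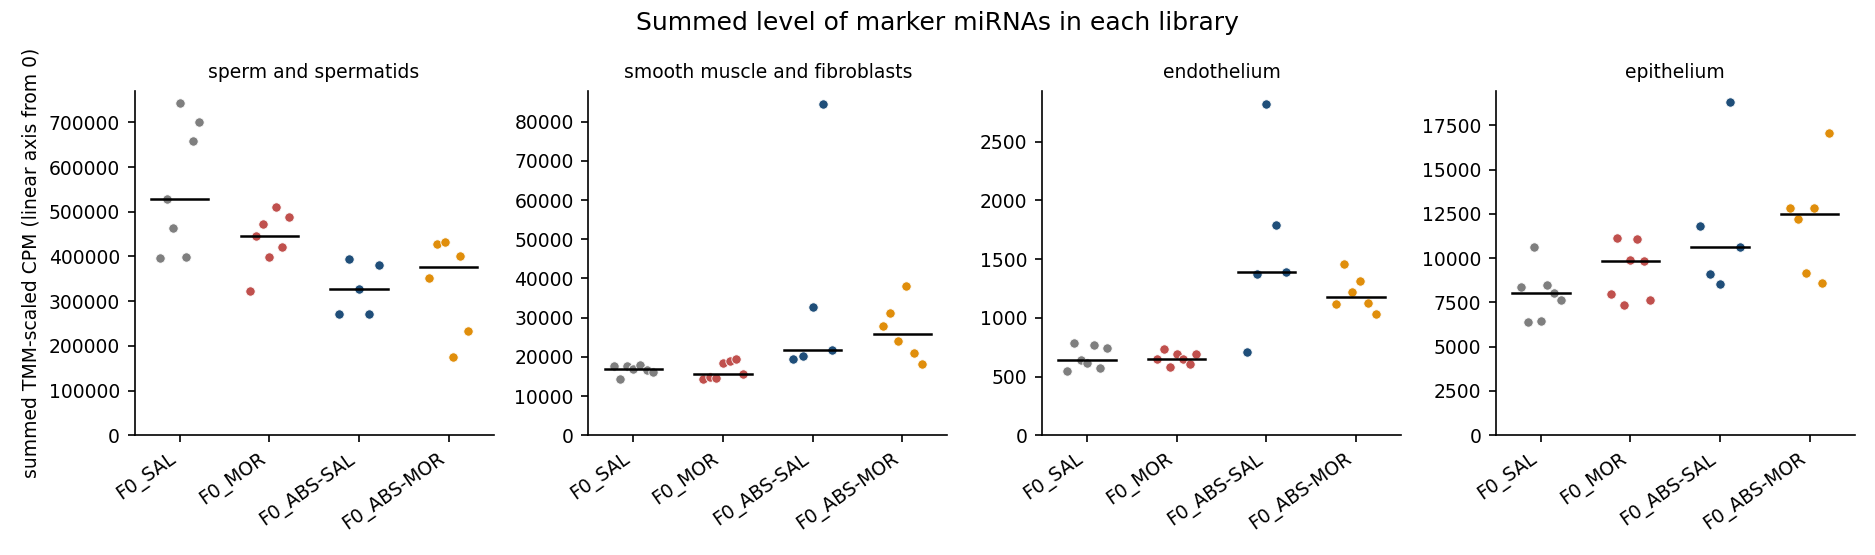
Summed TMM-scaled CPM (linear axes from 0) of marker miRNAs of sperm and spermatids, smooth muscle and fibroblasts, endothelium and epithelium in each of the 25 libraries by group; points are libraries and bars are group medians. Library R of F0_ABS-SAL sits at 84454 CPM for smooth muscle and fibroblasts and library L at 2821 CPM for endothelium, while the sperm sum has its highest values in F0_SAL.

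All 7 members had reads, but at very different levels. miR-125b-5p was the most abundant, with 83881 reads over the 25 libraries, and ranked 53 of 562 by total. miR-125a-5p had 11109 reads (rank 114), miR-125b-2-3p 6576 (rank 134), miR-351-5p 2046 (rank 188) and miR-125b-1-3p 420 (rank 272). The remaining 3p arms were at the edge of detection. miR-125a-3p had 41 reads in 13 of 25 libraries, with at most 7 in one, and miR-351-3p had 6 reads in 3 of 25 libraries, with at most 2. These 2 members failed the filter on low counts, and 5 of the 7 members were tested among 317 miRNAs. The table holds no count of 1, so a 0 may stand for 1 read.

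The order of the tested members was nearly the same in each library. miR-125b-5p exceeded miR-125a-5p in 25 of 25 libraries, by a median of 7.05 times in counts (4.47 to 12.6). miR-125a-5p exceeded miR-125b-2-3p in 23 of 25 libraries, with a median ratio of 2.05. miR-125b-2-3p exceeded miR-351-5p in 25 of 25 libraries (median ratio 2.66), and miR-351-5p exceeded miR-125b-1-3p in 25 of 25 (median ratio 5.00). Of the reads that carried the seed CCCUGAG, miR-125b-5p made up 79.5% to 91.2% in the single libraries. Together these reads took a median of 0.0757% of all miRNA counts in F0_SAL and 0.140% in F0_MOR, against 0.250% in F0_ABS-SAL and 0.254% in F0_ABS-MOR. Such shares of the raw total also move with the most abundant miRNAs. With TMM scaling the summed medians were 994, 1469, 2436 and 2331 CPM in the same order.

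miR-125b-5p, the member that supplies most of the seed, stood in the order F0_ABS-SAL, F0_ABS-MOR, F0_MOR and F0_SAL by median level. In F0_SAL the lowest, median and highest levels were 652, 851 and 2422 CPM, and in F0_MOR 1045, 1214 and 2433 CPM. The 5 F0_ABS-SAL libraries were at 1746 (E), 1670 (K), 2646 (L), 2163 (R) and 2479 (Y) CPM, and the 6 F0_ABS-MOR libraries ranged from 1558 to 3383 CPM with a median of 2086. Library H of F0_SAL and libraries G and M of F0_MOR reached the abstinent range, and 6 of 7 F0_SAL libraries lay below all F0_ABS-SAL libraries. The first pair and the last pair in this order did not pass the test described below, whereas each abstinent group against its nonabstinent group did.

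miR-125b-2-3p, the arm that only the chromosome 11 gene makes, had the clearest separation. Its lowest, median and highest levels were 43.7, 53.9 and 137 CPM in F0_SAL and 64.8, 99.9 and 213 CPM in F0_MOR. The F0_ABS-SAL libraries were at 163.5 (E), 137.3 (K), 234.3 (L), 264.7 (R) and 169.8 (Y) CPM, and F0_ABS-MOR ranged from 148 to 194 CPM with a median of 160. Every F0_ABS-SAL library lay above every F0_SAL library, though K and H were nearly level. In the morphine groups, library M of F0_MOR lay above all 6 F0_ABS-MOR libraries, and the other 6 F0_MOR libraries lay below all of them.

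miR-125b-1-3p, the arm of the chromosome 8 gene, was rare, with 4 to 37 reads in a library. Its median levels were 5.70 CPM in F0_SAL (2.41 to 9.03) and 7.32 CPM in F0_MOR (2.83 to 15.2). The abstinent medians were 10.5 CPM for F0_ABS-SAL (5.25 to 16.9) and 10.1 CPM for F0_ABS-MOR (6.16 to 18.4). The groups overlapped in each comparison.

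miR-125a-5p varied more within groups than miR-125b-5p, with a pooled within-group SD of log2 CPM of 0.64 against 0.48, and 0.49 as the median of all miRNAs tested. Its lowest, median and highest levels were 92.5, 149 and 398 CPM in F0_SAL and 155, 193 and 461 CPM in F0_MOR. In the abstinent groups they were 132, 238 and 402 CPM (F0_ABS-SAL) and 185, 217 and 411 CPM (F0_ABS-MOR). The groups overlapped over most of their ranges.

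miR-351-5p, the X-linked member, had the largest within-group SD of the 5 (0.70). Its lowest, median and highest levels were 16.8, 28.5 and 69.8 CPM in F0_SAL, 25.2, 39.7 and 107 in F0_MOR, and 35.8, 39.9 and 66.1 in F0_ABS-MOR. In F0_ABS-SAL, library L was at 106 CPM and the other 4 libraries between 25.1 and 30.2 CPM. Library L also had the highest miR-125b-5p, miR-125a-5p and endothelial marker levels of its group.

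**Figure D2:**
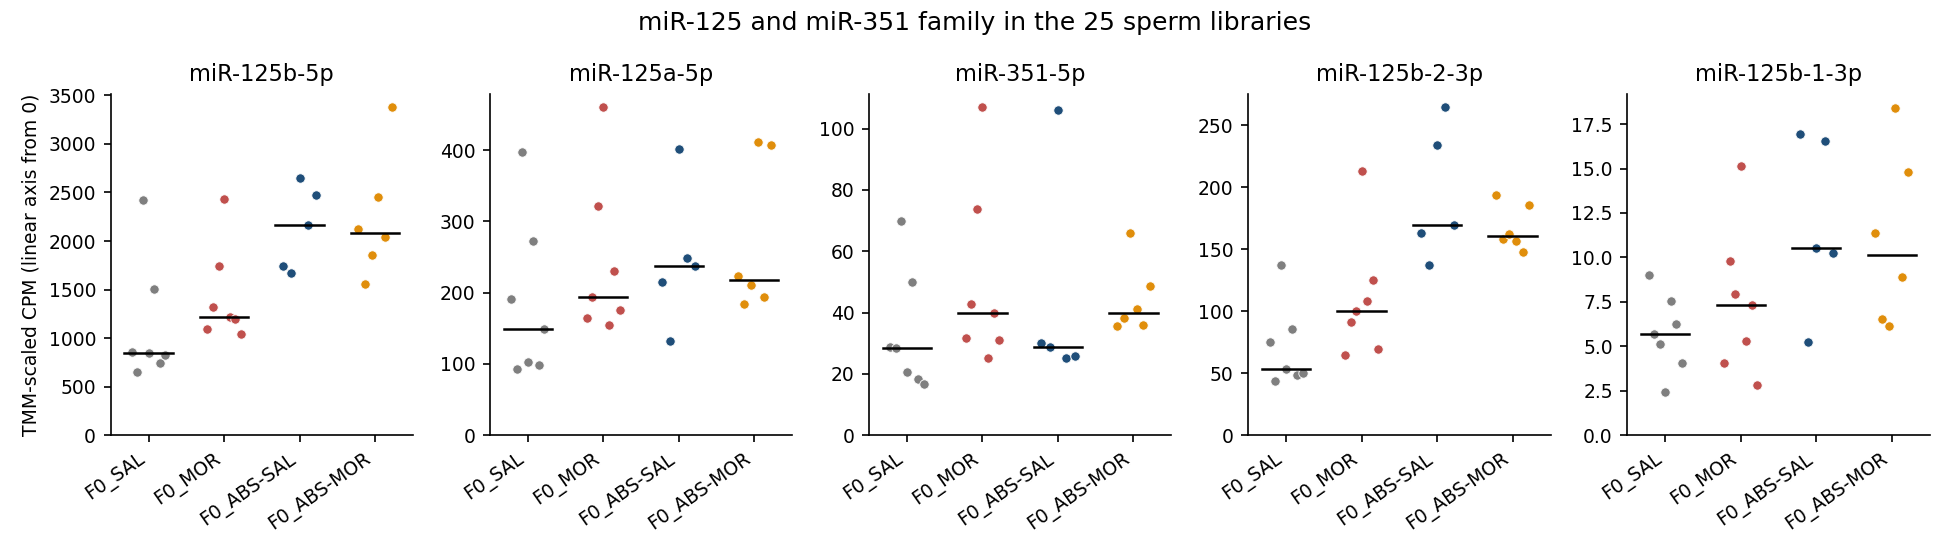
TMM-scaled CPM (linear axes from 0) of the 5 tested members in each of the 25 libraries by group; points are libraries and bars are group medians. miR-125b-2-3p lies between 43.7 and 137 CPM in F0_SAL and between 137.3 and 264.7 CPM in F0_ABS-SAL, while miR-351-5p of F0_ABS-SAL has 1 library at 106 CPM and 4 at or below 30.2 CPM.

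The first comparison was between timepoints in saline males, F0_ABS-SAL against F0_SAL. A miRNA was called at a Benjamini-Hochberg adjusted p below 0.1 over all 317 miRNAs in edgeR's quasi-likelihood test, where its log2 difference was also beyond 0.58 in either direction, which are the thresholds the study used. In this comparison 3 of 5 tested members were called, all higher in F0_ABS-SAL, where 22.4% of all tested miRNAs were called higher, 10.7% lower and 33.1% in either direction. miR-125b-2-3p rose by 1.47 on the log2 scale (standard error 0.27, adjusted p = 0.000369), a fold change of 2.76. Non-overlapping ranges with the abstinent group higher, as this arm had, occurred in 4.73% of all tested miRNAs. miR-125b-5p rose by 0.93 (standard error 0.27, adjusted p = 0.0128), with 5 of 5 libraries above the F0_SAL mean. miR-125b-1-3p rose by 1.07 (standard error 0.41, adjusted p = 0.0481), on few reads. miR-125a-5p (0.41, standard error 0.34) and miR-351-5p (0.40, standard error 0.39) were not called, with intervals of 2 standard errors of -0.27 to 1.09 and -0.39 to 1.19. The median log2 difference was 0.93 over the 5 members and 0.00 over all tested miRNAs.

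Without libraries L and R, 1 of 5 members was called, miR-125b-2-3p at 1.14 (adjusted p = 0.0284), where 8.41% of all tested miRNAs were called. miR-125b-5p then had a log2 difference of 0.79 (adjusted p = 0.123) and miR-125b-1-3p one of 0.87 (adjusted p = 0.269). miR-351-5p turned from 0.40 to -0.23 without both libraries, and was at -0.28 without L alone. miR-125b-1-3p also lost its call without library R alone (0.87, adjusted p = 0.160), without E and without O. miR-125a-5p gained a call without library H of F0_SAL (0.66, adjusted p = 0.0943).

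The same comparison in morphine males, F0_ABS-MOR against F0_MOR, was smaller for these arms. Here 1 of 5 tested members was called, with 11.0% of all tested miRNAs called higher, 10.1% lower and 21.1% in either direction. miR-125b-5p rose by 0.64 (standard error 0.26, adjusted p = 0.0844), with 6 of 6 libraries above the F0_MOR mean and 5 of 7 F0_MOR libraries below all 6. Ranges that did not overlap, with the abstinent group higher, occurred in 1.89% of all tested miRNAs and in no member. miR-125b-2-3p had a log2 difference of 0.60 (standard error 0.26, adjusted p = 0.102) and just missed the threshold. This arm was called in 8 of 10 alternatives that used every library, among them DESeq2, the tool of the study. miR-125b-1-3p stood at 0.56 (standard error 0.39, adjusted p = 0.313), miR-125a-5p at 0.16 (standard error 0.33) and miR-351-5p at -0.17 (standard error 0.37). The median over the members was 0.56, against 0.00 over all tested miRNAs.

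The call of miR-125b-5p and the lack of one for miR-125b-2-3p, both near the threshold, changed with single libraries. The miR-125b-5p call was lost without A (F0_MOR), N (F0_MOR) or X (F0_ABS-MOR), with adjusted p values from edgeR between 0.0205 and 0.126 over the 13 libraries left out in turn. miR-125b-2-3p was called without library M of F0_MOR (0.84, adjusted p = 0.0136), and also without T, Q, S or X. The sign of miR-351-5p was not stable, at 0.12 without library M.

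Marker lists of other cell types differed between the same groups. In F0_ABS-SAL against F0_SAL, 5 of 6 smooth muscle and fibroblast markers, 2 of 2 endothelial markers and 4 of 6 epithelial markers were called higher, and 4 of 5 tested sperm markers lower. Of all tested miRNAs, 22.4% were called higher there and 10.7% lower. Without libraries L and R the marker counts were 1 of 6 (miR-199a-5p), 2 of 2 and 1 of 6 (miR-205) higher and 2 of 5 (miR-34c-5p and miR-34b-3p) lower. In that fit 8.41% of all tested miRNAs were called in either direction. In F0_ABS-MOR against F0_MOR, 2 of 6, 2 of 2 and 2 of 6 were called higher, and 1 of 5 sperm markers lower. The shares of all tested miRNAs were 11.0% higher and 10.1% lower. Of 6 leukocyte markers 1 was called higher in each comparison and 1 lower in morphine males. Of 3 red blood cell markers 3 were called lower in morphine males and 0 in either direction in saline males, and of 2 striated muscle markers 1 was called higher in saline males. Without libraries L and R, the leukocyte count in saline males was again 1 and the striated muscle count 0. The marker sums of smooth muscle and fibroblasts did not overlap between F0_SAL and F0_ABS-SAL. The part of these cells in the miR-125b values was not tested, and in these bulk libraries fewer cells of a type and less RNA per cell cannot be told apart.

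Morphine against saline gave no call at either timepoint. In F0_MOR against F0_SAL, 0 of 5 members were called, and 0.00% of all tested miRNAs (23 had an unadjusted p under 0.05). Each of the 5 members had a difference above 0, from 0.35 to 0.65. miR-125b-2-3p stood at 0.65 (standard error 0.25, unadjusted p = 0.0156, adjusted p = 0.547), and this was the only member with an unadjusted p under 0.05 in edgeR and in DESeq2. limma-voom added miR-125b-5p. Over all miRNAs, DESeq2 called 0 (30 with an unadjusted p under 0.05) and limma-voom 1 (37), which was no member. With DESeq2 at these thresholds, the study itself reported miR-150-5p, which is no member, as differing in this comparison. Why the DESeq2 fit here did not call it was not tested. The interval of 2 standard errors for miR-125b-5p ran from -0.15 to 0.86 and that for miR-125a-5p from -0.24 to 1.02.

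In F0_ABS-MOR against F0_ABS-SAL, 0 of 5 members were called and 0.00% of all tested miRNAs, with 4 miRNAs and no member at an unadjusted p under 0.05. The member differences ran from -0.21 (miR-125b-2-3p) to 0.14 (miR-125a-5p), and each was smaller than its standard error. DESeq2 and limma-voom also called 0 miRNAs, with 5 and 3 at an unadjusted p under 0.05. The interval for miR-125b-5p was -0.50 to 0.63, and that for miR-351-5p -0.77 to 0.84.

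The difference between the timepoint effects was tested as an interaction, the change over abstinence in saline males less that in morphine males. It was called for 0 of 5 members and 0.00% of all tested miRNAs (10 had an unadjusted p under 0.05, and DESeq2 and limma-voom called 0, with 11 and 6). miR-125b-2-3p had an interaction of 0.86 (standard error 0.38, unadjusted p = 0.0290, adjusted p = 0.953), and 0.53 without libraries L and R. A call in saline males and none in morphine males was thus not shown to differ between them.

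**Figure D3:**
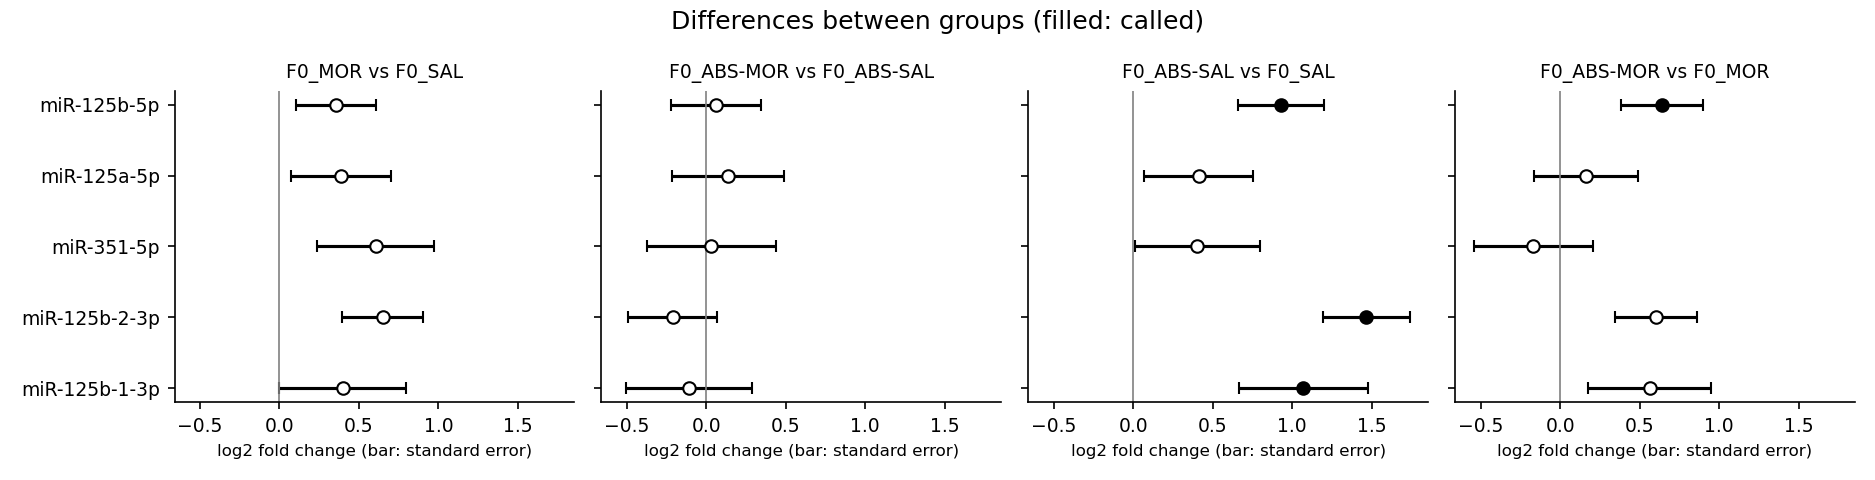
Log2 fold change (horizontal axis, bars are 1 standard error) of the 5 tested members in 4 comparisons by edgeR; filled points passed both thresholds. Filled points stand at 0.93, 1.07 and 1.47 in F0_ABS-SAL against F0_SAL and at 0.64 in F0_ABS-MOR against F0_MOR, and none stands in either comparison of morphine with saline.

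Ratios of 2 miRNAs within a library need no scaling between libraries, and were used to ask whether the members moved to the same extent. Of 12 ratios listed, 10 were tested in 4 comparisons each by exact two-sided permutation tests, giving 40 tests. The ratios of miR-125a-5p and miR-351-5p to their own 3p arms were left out because the 3p arms had median counts of 2 and 0. None of the 40 tests passed an adjusted p of 0.1, with all libraries or without L and R.

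The ratio of miR-125b-5p to miR-125a-5p, the 2 arms that differ only past base 13, had medians of 6.09 in F0_SAL and 5.93 in F0_MOR, against 8.71 in F0_ABS-SAL and 8.61 in F0_ABS-MOR. Its mean log2 value was 0.54 higher in F0_ABS-SAL than in F0_SAL (exact p = 0.0189, adjusted p = 0.163, higher than the F0_SAL mean in 5 of 5 libraries). It was 0.47 higher in F0_ABS-MOR than in F0_MOR (exact p = 0.00874, adjusted p = 0.163, 5 of 6 libraries). The ranges overlapped in both. Without libraries L and R the saline difference was 0.71 (exact p = 0.0167, adjusted p = 0.163).

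miR-351-5p relative to miR-125b-5p had a mean log2 ratio of -5.86 ± 0.76 (SD, n = 5) in F0_ABS-SAL and -5.10 ± 0.37 (SD, n = 7) in F0_SAL. The difference was -0.77 (exact p = 0.0417, adjusted p = 0.271), and -0.99 without libraries L and R (exact p = 0.00833, the smallest that 3 against 7 libraries allow, adjusted p = 0.163). In the morphine groups the ratio was -5.64 ± 0.48 (SD, n = 6) against -4.95 ± 0.36 (SD, n = 7), a difference of -0.69 (exact p = 0.0175, adjusted p = 0.163). Neither difference passed the threshold over the 40 tests.

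Both miR-125b genes make miR-125b-5p, so its ratio to miR-125b-2-3p is not one between the arms of a single gene. This count ratio had medians of 15.7 in F0_SAL and 14.5 in F0_MOR, against 11.3 in F0_ABS-SAL and 12.6 in F0_ABS-MOR. The mean log2 ratio was lower by 0.46 in F0_ABS-SAL than in F0_SAL (-0.46, exact p = 0.0126, adjusted p = 0.163), with 0 of 5 libraries above the F0_SAL mean. It was -0.32 without libraries L and R (exact p = 0.0583, adjusted p = 0.389). The difference was -0.04 between F0_ABS-MOR and F0_MOR (exact p = 0.822). The ratio of miR-125b-5p to miR-125b-1-3p had medians of 191 to 239 over the 4 groups, and of the 3p arms that of the chromosome 11 gene was the more abundant in each library.

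**Figure D4:**
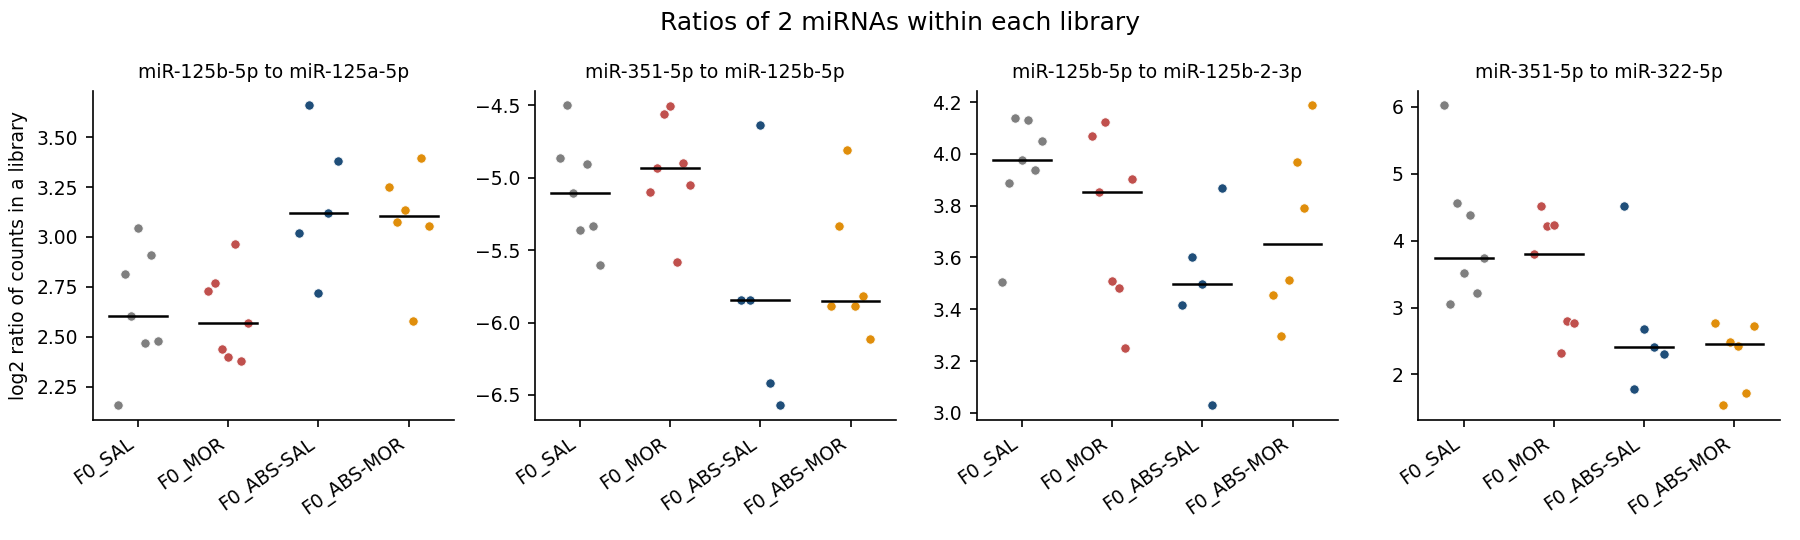
Log2 ratio of the counts of 2 miRNAs within each library (vertical axes, 0.5 added to each count) for 4 pairs by group; points are libraries and bars are group medians. The ratio of miR-125b-5p to miR-125a-5p has higher medians in both abstinent groups. The ranges of nonabstinent and abstinent groups of the same treatment overlap in every panel.

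The miRNAs encoded beside the members were described from a list of 20, of which 13 were tested. In F0_ABS-SAL against F0_SAL, 7 of 13 were called higher and 1 lower, where 22.4% of all tested miRNAs were called higher and 10.7% lower. In F0_ABS-MOR against F0_MOR, 3 of 13 were called higher and 1 lower, where the shares of all tested miRNAs were 11.0% and 10.1%. None was called in either comparison of morphine with saline. Their median log2 difference was 0.80 in saline males and 0.22 in morphine males, against 0.00 over all tested miRNAs in both. Without libraries L and R, 1 of the 13 was called in saline males, miR-100-5p (1.01, adjusted p = 0.0464). In that fit 8.41% of all tested miRNAs were called in either direction.

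Beside miR-125a, miR-99b-5p stood at 0.07 (adjusted p = 0.779) in saline males, whereas miR-99b-3p, from the other arm of its hairpin, rose by 1.28 (adjusted p = 0.0374) and let-7e-5p by 0.80 (adjusted p = 0.0100). None of these 3 was called in morphine males. miR-99b-3p was rare, with 5 to 18 reads in an F0_SAL library, against 1117 to 1823 for miR-99b-5p. miR-100-5p, a neighbour of miR-125b-1, rose by 1.47 (adjusted p = 0.000353) in saline males and by 0.70 (adjusted p = 0.0585) in morphine males. let-7a-5p, listed beside it but made from several genes, fell by 0.85 (adjusted p = 0.0128) and by 0.80 (adjusted p = 0.0197).

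Beside miR-125b-2, miR-99a-5p rose by 0.72 (adjusted p = 0.0219) in saline males and by 0.85 (adjusted p = 0.0107) in morphine males. let-7c-5p, also made from more than one gene, stood at 0.49 and 0.17 and was called in neither. miR-99a-5p was far more abundant than the members, with group medians of the log2 ratio of miR-125b-5p to miR-99a-5p between -4.16 and -3.69.

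In the X-linked cluster, miR-322-5p, the rodent counterpart of miR-424, rose by 2.02 (adjusted p = 0.00618) in saline males and by 1.27 (adjusted p = 0.0585) in morphine males, on at most 50 reads in a library. miR-450a-5p rose by 0.92 (adjusted p = 0.0131) and miR-322-3p by 1.19 (adjusted p = 0.0662) in saline males, and neither was called in morphine males. miR-351-5p, miR-503-5p and miR-542-3p from the same cluster were called in neither. The log2 ratio of miR-351-5p to miR-322-5p was lower by 1.33 in F0_ABS-SAL than in F0_SAL (-1.33, exact p = 0.0543, adjusted p = 0.271; -1.20 without libraries L and R, exact p = 0.183) and by 1.25 in F0_ABS-MOR than in F0_MOR (-1.25, exact p = 0.0204, adjusted p = 0.163).

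**Figure D5:**
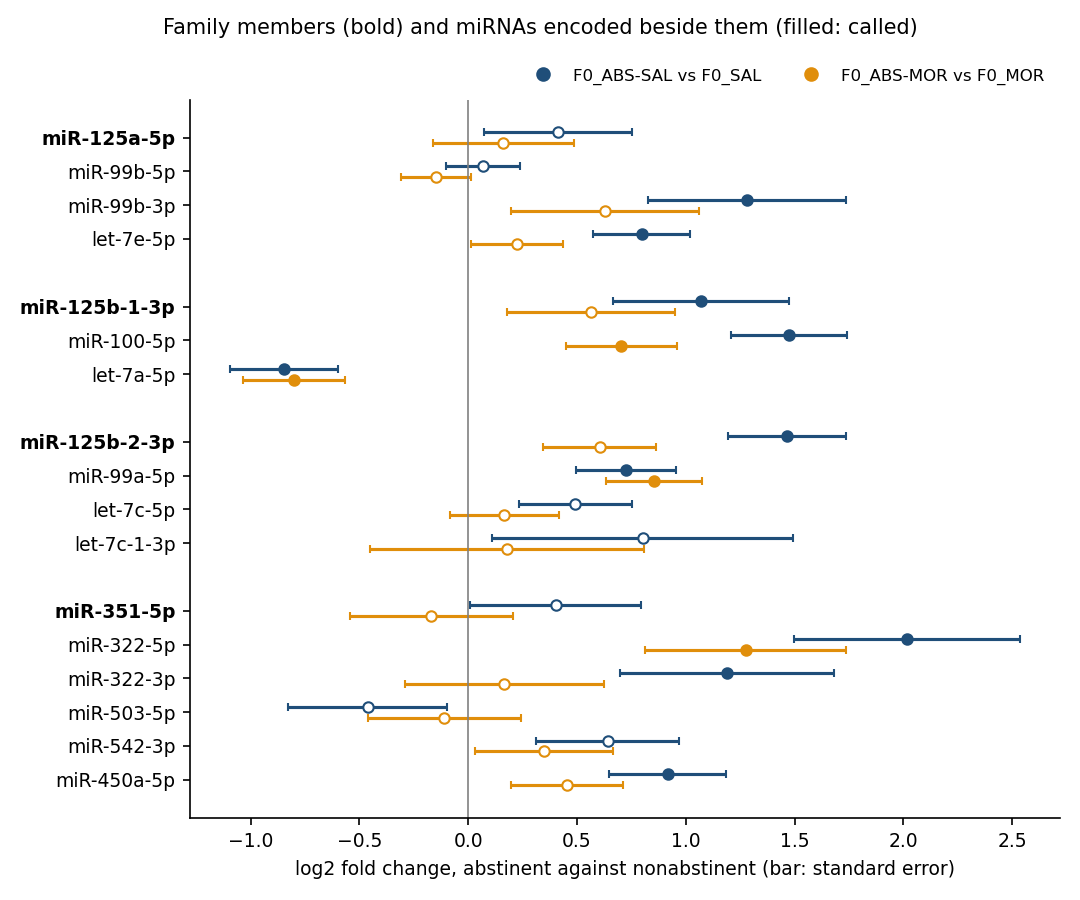
Log2 fold change of abstinent against nonabstinent groups (horizontal axis, bars are 1 standard error) for the single-gene members (bold) and the tested miRNAs encoded beside them, in saline males (blue) and morphine males (orange); filled points passed both thresholds. miR-100-5p, miR-99a-5p and miR-322-5p are filled and above 0 in both, let-7a-5p is filled and below 0 in both, and miR-351-5p and miR-503-5p are open in both.

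Likeness of pattern was measured as the SD, over the 25 libraries, of the log2 ratio of 2 miRNAs' counts, a smaller SD being more alike. Among 312 tested miRNAs outside the family, the closest to miR-125b-5p were miR-24-3p (0.30), miR-100-5p (0.30) and miR-23a-3p (0.39), with a median of 0.87 over all 312. The closest to miR-125a-5p were let-7c-5p (0.38), miR-222-3p (0.42) and let-7b-5p (0.45). The family member miR-125b-5p was about as close to miR-125a-5p, at 0.37. The closest to miR-351-5p were miR-181b-5p, miR-23b-3p and miR-328a-3p, each at 0.51, with a median of 0.90 over all 312. It stood at 0.45 from miR-125a-5p and 0.60 from miR-125b-5p. Its lowest count in a library was 32, against 947 for miR-125b-5p, and fewer reads widen such SDs. These miRNAs share libraries and depth, so the SDs are descriptions.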

How the data were processed

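Small RNA libraries of cauda sperm were prepared by the study with the NEBNext small RNA kit, and the forward reads were processed in sRNAbench (adaptor trimming, mean quality filter, bowtie1 with 1 mismatch, reads of at least 15 bases, assignment to miRBase before other noncoding RNA). The authors deposited whole-number read counts per mature miRNA, with 1 column per library and no normalization. The submitters' notes name the rn6 build. No count of 1 occurs and the smallest above 0 is 2. PCR copies were not marked, so reads are not independent molecules. Columns named REG were taken as nonabstinent and TO as abstinent because only this reading gives the labelled group sizes of 7, 7, 5 and 6. Library letters stand in no label.

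Counts were fitted with edgeR 4.0.16 in R 4.3.3 (TMM, filterByExpr, 1 coefficient per group, quasi-likelihood test, Benjamini-Hochberg adjustment over all miRNAs tested). Standard errors are the log2 fold change divided by the root of F. Within-library ratios had 0.5 added to each count. DESeq2 1.42.0, limma 3.58.1 (voom with sample weights), other scalings, filters, thresholds and leaving out libraries were alternatives. The omission of libraries L and R was chosen after seeing the data. Each pair of libraries differed beyond sampling noise (300 pairs, smallest chi-square per degree of freedom 35.1). The procedures were tested on simulated data. The named miRNAs were all family members, 20 miRNAs encoded beside them, the 3 closest in pattern to each 5p member and any other miRNA with the shared seed. The members and lists were chosen with earlier results of these data known. The noncoding RNA counts the authors deposited served only for 1 alternative scaling. Sequences were taken from RefSeq (GRCr8), and all 7 members matched by name.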

Additional observations from a re-analysis of the deposited data

Results flagged for a closer look

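Of 60 groups of library values checked for a single value far from the rest, about 3 would be marked by chance, and 3 were. miR-351-5p in library L of F0_ABS-SAL was at 106 CPM, with the next library at 30.2. miR-125b-2-3p in library M of F0_MOR was at 213 CPM, with the next at 125.5. The log2 ratio of miR-125b-5p to miR-125b-2-3p in library C of F0_SAL was 3.50, with the next at 3.89.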

How the results depend on the processing

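The calls of miR-125b-2-3p and miR-125b-5p in F0_ABS-SAL against F0_SAL were kept in all 10 alternatives that used every library and in each omission of 1 library (log2 differences 1.32 to 1.80 and 0.83 to 1.26). Without libraries L and R, 1 member and 27 miRNAs in all were called there, against 105 with every library, and the cause was not tested. The miR-125b-1-3p call was lost with limma-voom (adjusted p = 0.116). In F0_ABS-MOR against F0_MOR, 0 members were called at an adjusted p under 0.05 (43 of all miRNAs, against 67), and 2 with DESeq2, limma-voom, DESeq2 size factors, total count, a TMM factor over both count tables, no filter, a minimum of 10 counts or only the groups compared, since miR-125b-2-3p was added. limma-voom called 1 miRNA, no member, in F0_MOR against F0_SAL.

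With single libraries left out, member counts ranged from 2 to 4 in F0_ABS-SAL against F0_SAL and 0 to 2 in F0_ABS-MOR against F0_MOR. Counts of all miRNAs ranged from 65 to 126 and from 49 to 82, and from 0 to 1 in F0_MOR against F0_SAL. Ratios past the threshold ranged from 0 to 1 in both timepoint comparisons. No other count of calls moved.

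Signs turned only for values that were not called. In F0_ABS-MOR against F0_ABS-SAL, miR-125b-5p was -0.015 and miR-351-5p -0.045 with the TMM factor over both tables, and miR-351-5p -0.00042 with total count. Without L and R, miR-125b-1-3p was 0.012 and miR-125b-2-3p 0.071. With single libraries left out, ranges were -0.072 to 0.16 for miR-125b-5p, -0.021 to 0.40 for miR-125a-5p, -0.14 to 0.70 for miR-351-5p and -0.30 to 0.089 for miR-125b-1-3p. In F0_ABS-MOR against F0_MOR, miR-351-5p was 0.065 with limma-voom, 0.0041 with total count and -0.33 to 0.12 with single libraries left out. There miR-99b-5p was 0.055 and miR-503-5p 0.056 with total count, and ranges were -0.013 to 0.44 for miR-322-3p and -0.32 to 0.043 for miR-503-5p. In F0_ABS-SAL against F0_SAL, miR-351-5p ranged from -0.28 to 0.64 and was -0.23 without L and R, and miR-99b-5p ranged from -0.043 to 0.16 and was -0.15 without both. The interaction ranged from -0.0031 to 0.47 for miR-125a-5p and from -0.10 to 0.76 for miR-351-5p, and without L and R it was -0.12 and -0.072.

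Scaling by total count alone moved the median of all miRNAs to 0.39 in F0_ABS-SAL against F0_SAL, 0.25 in F0_MOR against F0_SAL and 0.18 in F0_ABS-MOR against F0_MOR, where the TMM factor over both tables gave 0.11. Relative to 0.39, miR-125b-5p stood at 0.87 and miR-125b-2-3p at 1.41. No paired analysis was possible because the columns carry no replicate numbers. miR-125a-3p and miR-351-3p were too rare to compare at this depth.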
